A study of Mus musculus with 12 samples.

Results

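Il33 encodes interleukin 33 (IL-33), and Il1rl1 and Il1rap encode the subunits of its receptor. Their transcripts were measured by RNA-Seq in the forebrain, without the olfactory bulb, of juvenile mice at postnatal day 25 (P25) and adult mice at postnatal day 60 (P60). The 3 genes were found by symbol among the 19268 genes of the deposited table, and all 3 were present. Il33 was chosen by its own difference between the ages in these libraries, and the other 2 genes because their products bind its product. The mice were male C57BL/6J, either wild-type (WT) or knock-outs (KO) homozygous for a Shank3 allele without exons 14 to 16. Shank3 encodes a scaffold of the postsynaptic density. The 4 groups are P25-WT, P25-KO, P60-WT and P60-KO, each of 3 libraries, and the labels give no treatment. The allele is not restricted to a cell type, and the tissue is a mixture of all forebrain cells. The labels name no sequencing batch, so a batch that coincided with age cannot be told apart from age.

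IL-33 is a member of the interleukin 1 (IL-1) family that is stored in the nucleus and acts as an alarmin, a signal released when cells are damaged. It binds the receptor ST2, the product of Il1rl1, which then pairs with the shared co-receptor IL1RAP to recruit the adaptor MyD88 and activate NF-kB and MAP kinases. In the brain and spinal cord, astrocytes and mature oligodendrocytes are known sources of IL-33, and microglia are among the cells that respond to it.

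Il33 (ENSMUSG00000024810) lies on the plus strand at chr19:29925114-29960718 of mouse assembly GRCm38, with 5 annotated transcripts. Il1rl1 (ENSMUSG00000026069) lies on the plus strand at chr1:40429570-40465415, also with 5 transcripts. From separate promoters and exons this gene makes a membrane-bound receptor and a soluble form that acts as a decoy for IL-33. Il1rap (ENSMUSG00000022514) lies on the plus strand at chr16:26581704-26730117 with 7 transcripts, of which 4 are coding. It overlaps the annotated gene Gm20319 on the other strand, and 4.33% of the 31-base words in its transcripts also occur in Gm20319. No word of Il33 and 2.66% of the words of Il1rl1 occurred in another gene. The deposited values add all transcripts of a gene together, so neither the start sites of Il33 nor the membrane and soluble forms of Il1rl1 could be told apart.

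The sequences around the 2 starts of Il33 that RefSeq gives, for the gene whose level differed between the ages, and around the start of Il1rap, whose level hardly did, are given from RefSeq (GRCm38.p6), each with 250 bases before the start and 50 after it. Capitals mark matches on either strand to TATAAA, the core of a TATA box, or GATAA, the core that GATA factors bind. The letters TGANTCA, the core that AP-1 factors bind, were searched too. The upstream Il33 window is chr19:29924863-29925162, the downstream one is chr19:29945540-29945839 and the Il1rap window is chr16:26581455-26581754, all on the plus strand.
Il33 upstream start: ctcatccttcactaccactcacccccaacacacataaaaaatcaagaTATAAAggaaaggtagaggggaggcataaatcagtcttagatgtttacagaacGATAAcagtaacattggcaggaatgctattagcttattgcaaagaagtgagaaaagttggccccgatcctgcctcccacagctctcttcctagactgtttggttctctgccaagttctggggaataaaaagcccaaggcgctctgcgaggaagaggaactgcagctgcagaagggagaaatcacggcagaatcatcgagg
Il33 downstream start: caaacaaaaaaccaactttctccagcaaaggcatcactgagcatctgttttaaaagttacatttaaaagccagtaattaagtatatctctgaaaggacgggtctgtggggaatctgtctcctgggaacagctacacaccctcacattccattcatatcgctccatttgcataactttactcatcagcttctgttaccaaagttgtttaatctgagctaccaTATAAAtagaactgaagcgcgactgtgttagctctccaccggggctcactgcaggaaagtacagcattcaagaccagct
Il1rap start: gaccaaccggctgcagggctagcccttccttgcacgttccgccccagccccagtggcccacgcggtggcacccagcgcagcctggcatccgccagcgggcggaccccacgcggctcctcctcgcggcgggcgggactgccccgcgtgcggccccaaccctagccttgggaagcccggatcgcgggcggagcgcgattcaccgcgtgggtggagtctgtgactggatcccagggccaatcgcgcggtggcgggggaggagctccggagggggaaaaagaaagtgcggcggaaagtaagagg
In the downstream Il33 window TATAAA began 29 bases before the start, whereas in the upstream window it began 203 bases before the start, beside a GATAA at 150 bases before it. The Il1rap window held none of the 3 motifs and had a GC content of 72%, against 46.3% and 42.3% in the Il33 windows. The 2 windows of Il1rl1, at chr1:40429320-40429619 and chr1:40439379-40439678, resembled those of Il33 with a GC content of 38.7% and 44.7% and held 3 matches to GATAA, although Il1rl1 did not show the age difference of Il33. Of 32851 mouse promoter windows of the same length, 13.6% held TATAAA, 25.4% held GATAA and 7.81% held TGANTCA, so matches are common. The data hold no measurement of binding at these sites.

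The ligand was 2.67 times higher in adult than in juvenile WT forebrain and 3.31 times higher in KO, while the co-receptor hardly differed between the groups and the receptor was close to the bottom of the table. At P25, Il33 had normalized counts of 448, 396 and 445 in the KO libraries and 475, 591 and 457 in the WT libraries. At P60 it had 1387, 1552 and 1331 in the KO libraries and 1213, 1543 and 1304 in the WT libraries. All 6 adult libraries were above all 6 juvenile libraries, and the lowest adult WT value was 2.05 times the highest juvenile WT value. The share of all genes whose ages separate in this way was not computed, and Il33 was chosen by this difference. The means were 430 ± 28.99 in P25-KO, 508 ± 73.0 in P25-WT, 1423 ± 115 in P60-KO and 1353 ± 170 in P60-WT (SD, n = 3 libraries each).

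In that order of groups, the adult means were nearest to each other and differed by 70.0 normalized counts, less than the SD of either group. The P60-WT mean was 846 above that of P25-WT, which is far beyond both SDs. The juvenile means differed by 77.9, just above the SD of P25-WT. Per kilobase of exon, counted over all annotated exons of a gene, Il33 had 149 in P25-KO, 176 in P25-WT, 493 in P60-KO and 469 in P60-WT. This measure compares genes only roughly, because annotated exons that are not used lower it. On this measure Il33 was above 51.2% to 55.3% of the 15676 protein-coding genes at P25 and above 80.2% to 81.1% at P60.

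Il1rl1 was close to the bottom of the table in every group. Its normalized counts were 3.26, 7.40 and 8.02 in P25-KO, 3.80, 7.76 and 9.17 in P25-WT, 14.2, 5.12 and 4.99 in P60-KO, and 7.47, 4.23 and 5.18 in P60-WT. The groups overlapped, and the highest value came from 1 P60-KO library whose group mates were both near 5. Per kilobase, its group means lay between 0.816 and 1.18, and 0.287% to 0.561% of coding genes were lower. No order of its 4 groups exceeded their spread, with means of 6.23 ± 2.59 in P25-KO, 6.91 ± 2.79 in P25-WT, 8.12 ± 5.30 in P60-KO and 5.63 ± 1.66 in P60-WT (SD, n = 3). Because its mean was under 10, it was left out of the test across genes.

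Il1rap, which also serves the receptors of IL-1 and IL-36 and has a neuronal isoform, was at a middle level per kilobase of exon. Its normalized counts were 1441, 1378 and 1301 in P25-KO, 1518, 1306 and 1572 in P25-WT, 1470, 1437 and 1599 in P60-KO, and 1498, 1409 and 1427 in P60-WT. All 4 groups overlapped, with means from 1373 ± 70.1 in P25-KO to 1502 ± 85.8 in P60-KO (SD, n = 3). Of the neighbours in the order of its groups, P60-WT and P25-KO differed by 71.3, just above their SDs of 46.7 and 70.1, and the others differed by less than either SD. Its level per kilobase was 121 to 132, so the co-receptor was over 100 times the level of Il1rl1 on the same scale in each group. The annotated exons of Il1rap add up to 11360 bases although its longest transcript has 4520, against 2886 and 2544 for Il33. The level of Il1rap may therefore be understated beside that of Il33.

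**Figure D1:**
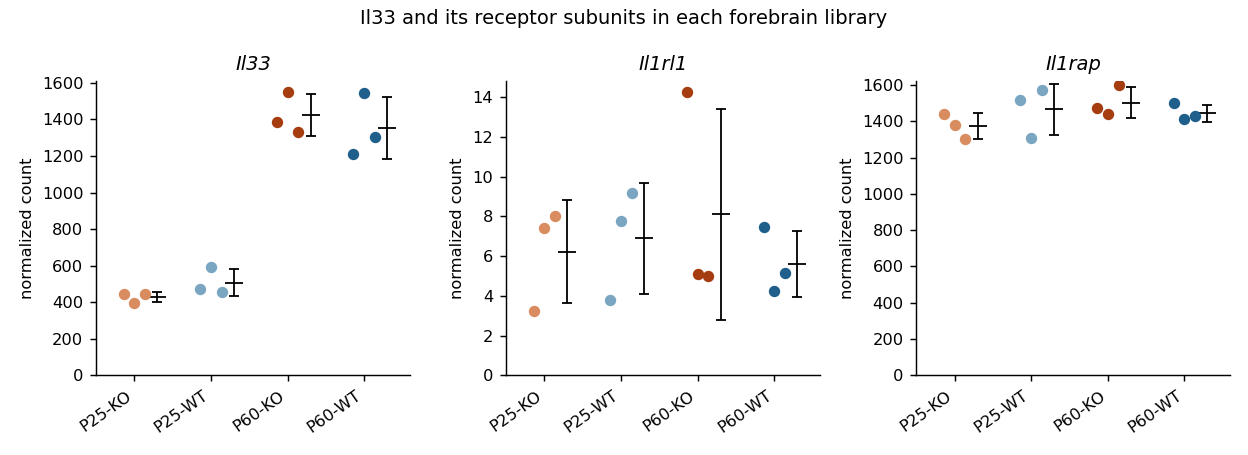
Normalized counts of Il33, Il1rl1 and Il1rap (vertical axes, each from 0) in the 3 libraries of each group (points), with the mean and SD (black bars). The 6 adult Il33 values, from 1213 to 1552, sit above the 6 juvenile values, from 396 to 591, whereas the groups of the other genes overlap. Il33 was chosen by this age difference.

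The first comparison asked whether the Shank3 deletion changed these transcripts at either age. Shank3 itself was at 5174 ± 481 in P25-KO against 10779 ± 786 in P25-WT and at 4914 ± 339 in P60-KO against 9796 ± 749 in P60-WT (SD, n = 3), and it was the only gene called at either age or over both (limma, Benjamini-Hochberg adjusted p = 0.0134, 0.00220 and 3.66e-07). That is 0.00571% of 17515 genes tested at P25, 0.00568% of 17610 at P60 and 0.00568% of 17594 over both ages, with 238, 440 and 361 genes at an unadjusted p under 0.05. The single call at P25 was lost, leaving 0 genes, without P25-KO 1 or P25-KO 2, and 8 genes were called without P25-WT 1. At P60 there were 3 calls without P60-KO 1 and 2 without P60-WT 1, and over both ages there was 1 call whichever library was left out. With a count-based test (DESeq2) at the same threshold, the paper reported further genes, among them Ccdc40 at both ages. None of the members was called in the fits made here.

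At P25 the 3 KO libraries had less Il33 than any WT library, at 84.7% of the WT mean. The log2 difference was -0.23 ± 0.12 (SE, limma, unadjusted p = 0.0923, adjusted p = 0.99996), with a 95% interval from -0.51 to 0.05. An exact two-sided permutation test gave p = 0.1, the smallest value that 3 against 3 libraries allow. Separation of this kind was seen for 4.76% of tested genes at P25. The separation rested on a highest KO value of 448 below a lowest WT value of 457. Without P25-WT 2, the library with the highest juvenile Il33, the log2 difference was -0.12. Leaving out that library could not make the groups overlap.

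At P60 the groups overlapped, with Il33 in KO at 105% of WT. The log2 difference was 0.08 ± 0.10 (SE, limma, adjusted p = 0.9995, 95% interval -0.14 to 0.29; exact permutation p = 0.5). It ranged from 0.00 without P60-WT 1 to 0.18 without P60-WT 2. At this age 7.79% of tested genes had groups that did not overlap, and Il33 was not among them. Over both ages the difference was -0.08 ± 0.09 (SE, limma, adjusted p = 0.99997; exact permutation within ages p = 0.465, where 0.005 is the smallest possible). It was -0.01 without P25-WT 2 and -0.13 without P60-WT 1.

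The genotype by age interaction, which compares the genotype difference at P60 with that at P25, was 0.31 ± 0.16 on the log2 scale for Il33 (SE, limma, unadjusted p = 0.0782, adjusted p = 0.99996). Its 95% interval ran from -0.04 to 0.66, and it was 0.20 without P25-WT 2. The interaction was called in 0% of 17594 genes, with 288 at an unadjusted p under 0.05. Neither the smaller juvenile nor the larger adult Il33 mean in KO was therefore shown to differ from WT beyond the spread between libraries, and the opposite signs at the 2 ages were not shown to differ either.

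Il1rap showed no genotype difference that passed the test. Its log2 difference was -0.09 ± 0.09 at P25, 0.06 ± 0.06 at P60 and -0.02 ± 0.06 over both ages (SE, limma, adjusted p of at least 0.9995 in each; exact permutation p = 0.4, 0.4 and 0.755). With 1 library left out, the difference ranged from -0.17 to -0.04 at P25 and from 0.01 to 0.09 at P60. The 95% interval over both ages, from -0.14 to 0.10, bounds a fold between 0.908 and 1.08. For Il1rl1 the exact permutation tests gave p = 0.6, 0.7 and 0.815. The interval of its log2 difference at P25 ran from -1.22 to 0.96, which bounds a fold between 0.428 and 1.94, so at this level smaller changes of the receptor were not detectable.

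The comparison of P60 with P25 within a genotype asked how the genes differ between juvenile and adult forebrain. For Il33 this contrast chose the gene, so its values are a description. On the log2(value + 1) scale, Il33 was 1.41 ± 0.13 higher at P60 in WT and 1.72 ± 0.09 higher in KO (SE), which is 2.67-fold and 3.31-fold as ratios of group means. A larger difference in either direction was seen for 1.01% of tested genes in WT and 0.608% in KO, a rank that follows from that choice. For Il1rap the log2 difference was -0.02 ± 0.09 in WT and 0.13 ± 0.07 in KO, and for Il1rl1 it was -0.21 ± 0.46 and 0.26 ± 0.52 (SE). In WT, 8.65% of genes were called between the ages, 3.66% higher and 4.99% lower at P60, and in KO 20.7% were called, 9.37% higher and 11.3% lower. The 2 genotypes share no libraries, so the 2 differences in Il33 come from separate libraries.

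**Figure D2:**
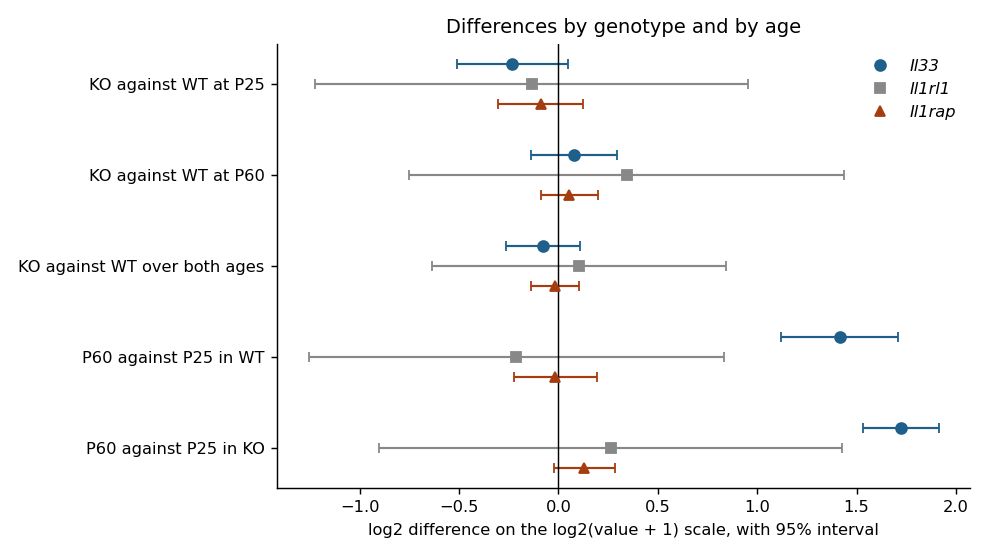
Log2 differences of the 3 genes in each comparison (points) with 95% intervals from limma (bars), on the log2(value + 1) scale. Intervals of KO against WT include 0 for every gene. By age, Il33 lies at 1.41 in WT and 1.72 in KO, in the contrast that chose it.

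The known sources of IL-33 were examined next, through marker genes of each cell type. In bulk tissue, fewer cells of a type and less RNA per cell cannot be told apart. The astrocyte, oligodendrocyte, microglia, endothelial and neuron lists were complete in the table and none of their genes was at 0 in any library. Markers of mature oligodendrocytes were much lower at P60, the opposite direction to Il33. Of 15 markers, 12 were lower in WT and 13 in KO, with median log2 differences of -1.29 and -1.08, and none was higher. Their summed normalized counts were 434797 to 512161 in P25-KO, 480537 to 562811 in P25-WT, 222276 to 247145 in P60-KO and 218087 to 237687 in P60-WT. Mog and Mag, which encode proteins of central myelin, fell in both genotypes, with log2 differences of -1.46 and -1.35 in WT and -1.21 and -1.23 in KO. Ermn and Aspa, genes of the mature oligodendrocyte, did not pass the test in either genotype, with log2 differences of -0.11 and -0.20 in WT and 0.16 and -0.01 in KO.

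Astrocyte markers moved less. Of 15, 5 were lower at P60 in each genotype and none was higher, with medians of -0.13 in WT and -0.07 in KO. Their sums were 172141 to 188957 in P25-KO, 179383 to 186108 in P25-WT, 148658 to 163836 in P60-KO and 153391 to 161485 in P60-WT. Gfap, the intermediate filament of astrocytes, fell by 0.56 on the log2 scale in WT and by 0.43 in KO (limma, adjusted p = 0.0113 and 0.00228). Slc1a3, a glutamate transporter of astrocytes, had log2 differences of -0.09 and -0.07 that did not pass the test. Neither source list rose with Il33, and the part of cell composition in the Il33 difference was not tested.

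Oligodendrocyte precursor markers were lower for 5 of 8 genes in WT and 7 of 8 in KO, with summed levels of 9539 to 12131 at P25 and 5870 to 6333 at P60. None of the 15 microglia markers was called in either genotype, with sums from 11026 to 14165 at P25 and 10604 to 13176 at P60. Among 12 endothelial markers 1 was higher in WT and none was called in KO. Of 10 neuron markers, 1 was higher and 2 were lower in WT, and 2 were higher and 2 lower in KO, with sums that stayed between 291121 and 307782. The meningeal and choroid plexus list had 1 gene higher and 2 lower of 8 in each genotype, the latter being the collagens Col1a1 and Col1a2. Markers of the cells best known for ST2 were sparse. Of 5 mast cell markers only Hdc was in the table, and it was not called. Of 8 lymphocyte markers 4 were in the table, with sums of 150 to 225, and none was called. The others are not analysed here.

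At P25, where Il33 was lower in every KO library, all 15 mature oligodendrocyte markers had a negative log2 difference between KO and WT, with a median of -0.13 and none called. The mean log2 deviation of the list from its average over the 12 libraries was 0.37, 0.33 and 0.49 in P25-KO and 0.49, 0.65 and 0.47 in P25-WT. The groups overlapped, and the library with the highest score, P25-WT 2, also had the highest juvenile Il33. Of 15 microglia markers 14 had a negative difference, with a median of -0.12 and none called, and the median of the 15 astrocyte markers was -0.02, with 4 positive. At P60, 12 of 15 oligodendrocyte and 10 of 15 astrocyte markers had a positive difference (medians 0.02 and 0.03), as had 3 of 15 microglia and 1 of 12 endothelial markers (medians -0.09 and -0.17), and none was called. The part of these cells in the Il33 values was not tested.

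Within groups, Il33 and the oligodendrocyte list tended to deviate the same way, although between the ages they went opposite ways. The library with the highest Il33 was also highest for the list in 3 of 4 groups, and the library with the lowest Il33 was lowest for the list in 3 of 4. The precursor list had the same tallies, and the meningeal list 3 and 2 of 4. With group means taken away, Pearson's r over the 12 libraries was 0.78 and Spearman's rho 0.71, and r was 0.71 without the 2 libraries farthest out on the list. The other 7 lists tracked had r between -0.46 and 0.42, and that of the precursor list was 0.08 with all libraries and 0.86 without its farthest 2. These are descriptions of 12 libraries whose genes share library composition.

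**Figure D3:**
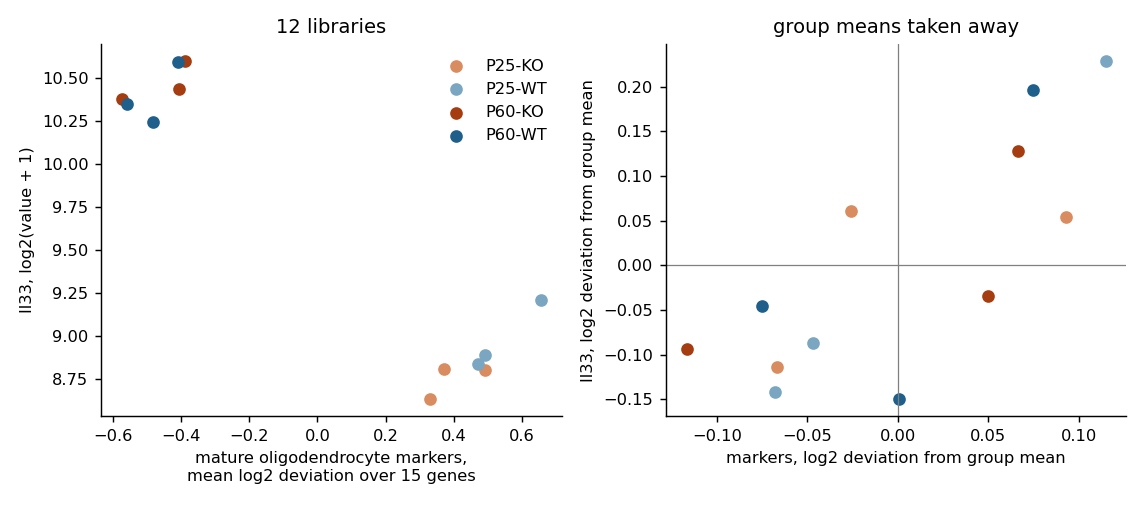
Il33 against the mean of 15 mature oligodendrocyte markers in each library (points, colored by group), as log2 values on the left and as deviations from the group means on the right. The adult libraries lie at high Il33 and low markers, whereas the deviations have r = 0.78 over 12 libraries, with single libraries such as P25-KO 1 and P60-KO 1 deviating in opposite directions.

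The genes whose values were most like those of Il33 over the 12 libraries, by Pearson's r among 17579 genes, were Eny2 (0.97), Peg13 (0.97), Hsf4 (0.97), Pls1 (0.97) and Kif5b (0.97). The most opposite were Mfsd12 (-0.99), Ncan (-0.99), Tmem132a (-0.99), Nomo1 (-0.99) and Ctnnd2 (-0.99). Ncan encodes neurocan, a proteoglycan of the brain matrix, and Kif5b a motor of axonal transport. Since the ages form separate clusters, these values mainly describe the step between them. With group means taken away, the most alike were Prnp (0.96), Tpst2 (0.95), Surf1 (0.95), Erh (0.95) and Mr1 (0.95), and the most opposite were Fndc8 (-0.97), Atxn1 (-0.97), Ppp1r12b (-0.96), Ddx19b (-0.96) and Prrt1 (-0.96). None of the genes named over all libraries recurred among these. On this scale the markers of a list differed among themselves, with r of 0.84 for Mog and 0.18 for Mag of the mature oligodendrocyte list, and of 0.06 for Pdgfra and -0.84 for Gpr17 of the precursor list.

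Il33 and its co-receptor tended to deviate in opposite directions within groups, but not in every library. Their r was 0.25 over the 12 libraries and -0.76 with group means taken away, and that of Il33 with Il1rl1 was 0.01 and -0.23. In P25-KO 1, P60-KO 1 and P60-WT 3, Il33 and Il1rap deviated the same way from their group means. With group means taken away, Il1rap also had r of -0.85 with Mog. These values too describe 12 libraries whose genes share library composition. The genes most like Il1rap over the 12 libraries included Plagl1 (0.89) and Clint1 (0.85), and the most opposite were Pdlim4 (-0.90), Rpap2 (-0.88) and Glod4 (-0.88). With group means taken away, D5Ertd579e (0.96), Srgap1 (0.96) and Prkg1 (0.96) were the most alike, and Acads (-0.97), Fcor (-0.97) and Hist3h2ba (-0.96) the most opposite.

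Among its relatives, Il33 was at P60 the most abundant of the 4 IL-1 family ligands in the table. Per kilobase, Il18 had 290 to 309 in the 4 groups, which was above Il33 at P25 and below it at P60. Il1a and Il1b, the classical pro-inflammatory ligands, were between 2.31 and 6.94. Il18bp, a secreted decoy for IL-18, had 58.3 to 86.1. Among receptors, Il1rap was the most abundant at 121 to 132, followed by Il1rapl1, a synaptic relative, at 54.2 to 61.7. Il1r1, the signaling receptor for IL-1, had 24.9 to 27.3, and Il1rl1 was the lowest of the 8 receptor genes measured.

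**Figure D4:**
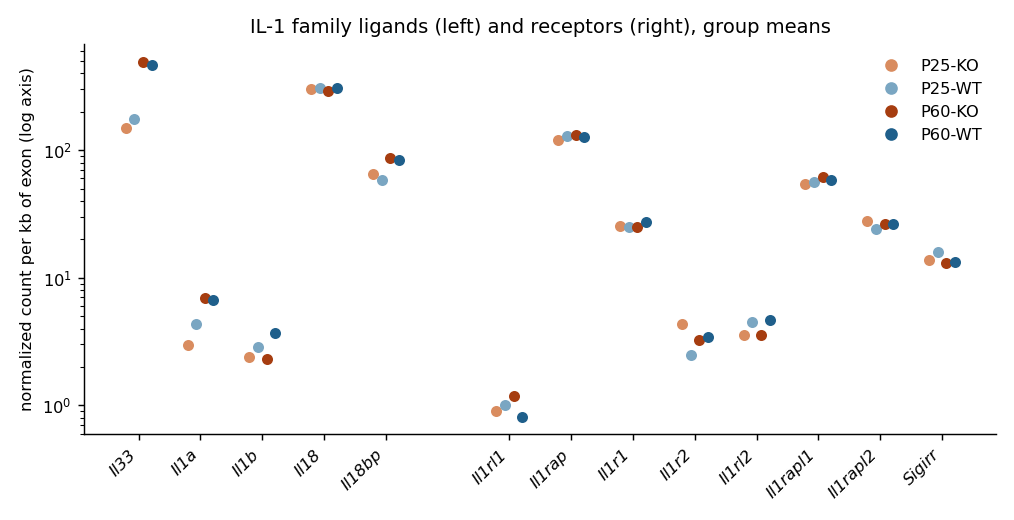
Group means of IL-1 family ligands and the decoy Il18bp (left) and receptors (right), in normalized counts per kilobase of exon on a log axis. Il33 rises above Il18 between P25 and P60, and Il1rl1 is the lowest gene shown, between 0.816 and 1.18.

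The rest of the pathway was read from 6 lists of 88 genes, of which 61 were in the table and 56 had a mean high enough to test. Between KO and WT none was called at P25, at P60, over both ages or in the interaction, and none had an unadjusted p under 0.05 (limma). Between the ages 3 of 56 were called in WT, or 5.36% against 8.65% of all genes, and 12 of 56 in KO, or 21.4% against 20.7%. Their median log2 differences were 0.04 and -0.04, against 0.00 and 0.01 over all genes tested. The share of the pathway called was thus near or under the background.

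Of the 32 genes of the signaling chain itself, 1 was higher and 2 were lower in WT, and 4 were higher and 4 lower in KO. Fbxl19, a subunit of a ubiquitin ligase that has been reported to mark ST2 for degradation, fell in both genotypes, from 2912 ± 136 to 2266 ± 95.4 in WT and from 2957 ± 165 to 2237 ± 64.2 in KO (SD, n = 3; limma, adjusted p = 0.0264 and 0.00232). Mapk3, which encodes the kinase ERK1, fell in both by 0.37 and 0.38 on the log2 scale (adjusted p = 0.0381 and 0.00190). Tab3, an adaptor of the kinase TAK1, rose by 0.44 in WT (adjusted p = 0.0366), and in KO its log2 difference of 0.20 did not pass the test. In KO the ubiquitin ligase Traf6, the IkB kinase Chuk, and the JNK pathway kinases Map2k7 and Mapk9 rose by 0.17 to 0.40 on the log2 scale. Their differences in WT were 0.23, 0.36, 0.14 and 0.18 in that order and did not pass the test. In KO Irak2, a kinase bound by MyD88, and Tollip, an adaptor that restrains the IRAK kinases, fell by 0.41 and 0.20, and their WT differences of -0.23 and -0.18 did not pass the test. Whether the difference between the ages itself differed by genotype was tested by the interaction, in which no gene was called.

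Of the 10 genes of IL-33 cleavage and release, 4 were in the table. Of 8 other alarmin genes 5 were in the table, and Crlf2, a subunit of the receptor for the alarmin TSLP, fell by 0.35 on the log2 scale in KO (limma, adjusted p = 0.0176), with a WT difference of -0.44 (adjusted p = 0.0667). Of 20 NF-kB targets and type 2 cytokines 10 were in the table and 1 was called, Tnip1, an inhibitor of NF-kB, which fell by 0.24 in KO (adjusted p = 0.0496), with a WT difference of -0.21 (adjusted p = 0.156). Il18bp rose by 0.40 in KO (adjusted p = 0.0422), with a WT difference of 0.54 (adjusted p = 0.0759). None of the 5 other IL-1 receptor genes tested was called in either genotype. The listed genes outside the table are not analysed here.

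**Figure D5:**
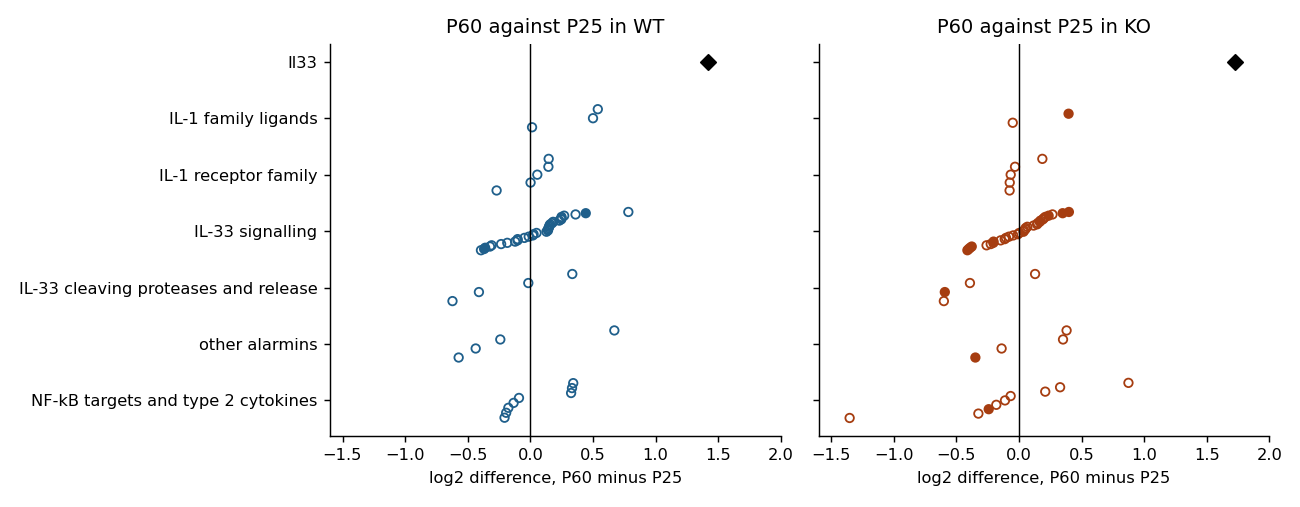
Log2 differences between P60 and P25 for the tested genes of the 6 lists (circles, filled where the adjusted p was under 0.05) in WT (left) and KO (right), with Il33 as a black diamond. All listed genes lie nearer to 0 than Il33, at 1.41 and 1.72, which was chosen by this difference. Of the listed genes, 3 are filled in WT and 12 in KO.

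The pathway counts rested on single libraries. In WT the count of 3 became 0 without P25-WT 1, P60-WT 1 or P60-WT 3, 1 without P60-WT 2, 5 without P25-WT 2 and 7 without P25-WT 3. In KO the count of 12 became 5 without P25-KO 3 and 6 without P60-KO 1. The number of genes called in the whole table moved as well, between 122 and 2403 in WT and between 2093 and 3230 in KO when 1 library was left out. The Il33 difference itself stayed between 1.32 and 1.53 in WT and between 1.66 and 1.77 in KO.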

How the data were processed

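RNA was sequenced from 12 mouse forebrain libraries, 3 in each of 4 groups of age and genotype taken from the sample titles. The authors quantified transcripts with Salmon (1.1.0 in the submitters' processing notes), imported them to genes and normalized them with DESeq2 (1.26.0 in those notes). The deposited values are signal on a count scale, called normalized counts here, over all 12 libraries together. They are not whole reads, so the depth is unknown, no count model was fitted, and no interval for counting error or detection floor was computed. Values per library sum to between 30568259 and 32348554. An exact 0 may be a failed estimate. The authors' annotation and use of strand are not given in the sources used here, so overlapping genes are uncertain. Gene models came from GENCODE M21 (GRCm38), which held 19252 of the 19268 identifiers.

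Tests used limma 3.58.1 in R 4.3.3 (lmFit and eBayes, trend on) after log2(value + 1), for genes with a mean of at least 10 in the fit. A Benjamini-Hochberg adjusted p under 0.05 over all tested genes was a call. Each comparison used its own 6 libraries, and the interaction and the comparison over both ages used all 12. Single genes were also tested by exact two-sided permutation over libraries, within age where both ages were used. The fit was tested on simulated data. Shared numbers were not treated as pairs of mice in the main fits. The lowest correlation of same-numbered libraries' deviations was -0.07 between KO and WT at P25 and 0.06 at P60. Between the ages it was -0.04 in WT and -0.02 in KO. Each was under 0.1, the minimum set for pairing. For numbers 1, 2 and 3, KO and WT had correlations of 0.04, -0.04 and -0.07 at P25 and 0.06, 0.17 and 0.13 at P60. Whether shared numbers mark a common source at P60 was not tested. The authors state 3 mice per group, and p-values measure the spread between these libraries. The members, the gene lists and the tests were chosen with earlier results of these data known. Genes named came from the members, all pathway genes called between the ages, the first 3 markers of a list, and the 5 (Il33) or 3 (Il1rap) genes with the highest and lowest correlation, together with Ermn and Aspa, which were picked after their values were seen. Some genes that this rule names are not reported here. The alternatives tried were another pseudocount, no minimum mean, equal library totals, no trend, all 12 libraries in a single fit, the replicate number as a block, and each library left out.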

Additional observations from a re-analysis of the deposited data

How the results depend on the processing

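Between genotypes and in the interaction, the log2 differences of Il33 and Il1rap kept their direction and their side of the threshold under all alternatives tried, except Il1rap over both ages. That value, -0.02, changed sign without P25-KO 3 (0.0076), P25-WT 1 (0.0030) or P25-WT 3 (0.0141), within a leave-one-out range of -0.0460 to 0.0141. Between the ages, Il33 stayed higher at P60 throughout, and Il1rap in WT, at -0.02, ranged from -0.10 to 0.04. The count of pathway genes called between the ages depended most on the settings. In WT it was 3, but 0 without the intensity trend and 14 with all 12 libraries in 1 fit, and 0 to 7 with a library left out. In KO it was 12, but 4 without the trend and 5 to 10 with a library left out. All genes called fell or rose with these settings, from 1521 to 192 and 3442 in WT and from 3641 to 1725 in KO without the trend. With the replicate block the pathway counts were 4 and 8, and the log2 difference of Il33 was -0.23 ± 0.14 (SE) at P25 and 0.08 ± 0.06 at P60, with no call changed among the members. The call of Shank3 at P25 was lost with the replicate block and without the trend, and that at P60 without the trend, each leaving 0 genes called; over both ages there was 1 call under each alternative. Scaling libraries to equal totals moved the median of all genes by 0.05 in WT and 0.03 in KO between the ages. The direction of Il1rl1 turned when single libraries were left out, for example from -0.13 to 0.21 at P25 without P25-KO 1; the cause was not tested. With 3 libraries per group and unknown depth, changes smaller than the intervals given were not detectable.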
